A study of Mus musculus with 9 samples.

Results

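The 33 genes described here encode subunits of SAGA outside its deubiquitinase module, of ATAC and of TFIID, chosen by gene symbol from the 24493 genes of the deposited expression table. All 33 were found, and all 33 reached a mean of 1 TPM over the 9 samples, as did 13843 genes in all. TPM values are corrected for transcript length and sum to 1000000 in every library, so levels can be set beside each other between genes. The samples were mouse pancreatic tumor cells of the line 6419c5, a single clone of C57BL/6 origin, taken from late stage tumors that grew after implantation under the skin. Polyadenylated RNA came from 3 WT samples, 3 samples of the knockout Usp22-KOA and 3 of the knockout Usp22-KOB. Usp22 is the only gene whose genotype the labels give, the 3 groups share every other labelled property, and the sources used here do not state what A and B stand for. The labels do not say whether the 3 samples of a group came from separate tumors, so p-values measure only how far these samples spread, which can be technical.

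SAGA and ATAC are coactivator complexes that acetylate histones at promoters and enhancers. Both are built around the acetyltransferase KAT2A or its paralog KAT2B, but each has its own adaptor, TADA2B in SAGA and TADA2A in ATAC. SAGA also carries a deubiquitinase module, of which USP22 is the enzyme, a core of histone-fold proteins, the large subunit TRRAP that activators contact, and a pair of splicing factor subunits, SF3B3 and SF3B5. TFIID is the general transcription factor that brings the TATA-binding protein TBP to promoters, and it shares TAF9, TAF10 and TAF12 with SAGA, while TAF5L and TAF6L of SAGA stand in for the TFIID subunits TAF5 and TAF6. Since USP22 works inside SAGA, the design allows the RNA of its partner subunits to be followed when Usp22 is lost.

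Promoter sequences are shown for 4 of the genes the results turn on: Taf1 and Mbip, which rose in Usp22-KOA, and Taf10 and Zzz3, which fell in both knockouts. Each is the 250 bases before the transcription start in RefSeq on GRCm38.p6, printed 5′ to 3′ on the gene's strand, and capitals mark matches, on either strand, to the motifs searched.
Taf1 promoter, chrX:101532485-101532734, plus strand: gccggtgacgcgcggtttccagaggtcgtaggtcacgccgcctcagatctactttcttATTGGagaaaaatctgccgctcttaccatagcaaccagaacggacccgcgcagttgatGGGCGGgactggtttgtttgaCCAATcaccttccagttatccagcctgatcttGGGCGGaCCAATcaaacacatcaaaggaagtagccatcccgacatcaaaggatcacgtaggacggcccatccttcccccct
Mbip promoter, chr12:56345895-56346144, minus strand: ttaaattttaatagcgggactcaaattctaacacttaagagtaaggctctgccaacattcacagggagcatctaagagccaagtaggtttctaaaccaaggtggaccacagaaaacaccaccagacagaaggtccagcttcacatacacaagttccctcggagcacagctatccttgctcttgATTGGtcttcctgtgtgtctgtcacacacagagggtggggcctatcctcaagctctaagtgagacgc
Taf10 promoter, chr7:105744339-105744588, minus strand: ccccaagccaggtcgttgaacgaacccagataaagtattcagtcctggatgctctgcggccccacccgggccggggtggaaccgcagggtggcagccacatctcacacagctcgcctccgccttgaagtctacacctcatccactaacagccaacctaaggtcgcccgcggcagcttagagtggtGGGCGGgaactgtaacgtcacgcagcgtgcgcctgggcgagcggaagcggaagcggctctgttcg
Zzz3 promoter, chr3:152395223-152395472, plus strand: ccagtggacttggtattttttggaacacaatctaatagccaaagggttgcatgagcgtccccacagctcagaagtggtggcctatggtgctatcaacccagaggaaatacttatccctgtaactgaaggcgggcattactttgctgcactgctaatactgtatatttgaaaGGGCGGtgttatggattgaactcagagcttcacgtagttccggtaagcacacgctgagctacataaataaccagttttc
A short stretch separates the starts of Taf6, which rose in Usp22-KOA, from that of its divergent neighbour Cnpy4, and is shown because both genes are read away from it. It spans 33 bases on chromosome 5 from 138187452 to 138187484, printed on the minus strand of Taf6.
Taf6 to Cnpy4, chr5:138187452-138187484, minus strand: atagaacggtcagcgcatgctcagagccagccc
RefSeq promoters were matched by symbol for 29 of the 33 genes. The 6 motifs named next were searched on both strands, each on its own, and none of them is contained in another. GGGCGG, the core of the GC box bound by SP1 family factors, was in 20 of the 29 windows (69% against 57.1% of the 10507 windows of tested genes), and it stood 2 times in the Taf1 window and 1 time each in those of Taf10 and Zzz3. CCGGAAG, a core of sites bound by ETS factors, was in 7 of the 29 (24.1% against 13.6%), and the E-box CACGTG in 5 (17.2% against 8.32%). CCAAT was in 8 windows (27.6% against 36.5%), with 3 matches in the Taf1 window and 1 in that of Mbip, and TATAAA, the TATA box read by TBP, was in 3 (10.3% against 7.09%). The NRF1 consensus was in 1 window (3.45% against 1.58%). The median GC content was 56.4% over the 29 windows and 59.2% over the windows of tested genes. Of the 4 windows printed, those of Mbip (3 CpG) and Zzz3 (6 CpG) held fewer CpG than those of Taf1 (16) and Taf10 (21), so the pair that rose and the pair that fell each mixed both kinds.

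The targeted gene was low in both knockouts. In WT, Usp22 measured 55.1, 54.5 and 56.4 TPM, beside 9.77, 8.46 and 10.1 TPM across the Usp22-KOA samples and 11.8, 14.9 and 14.1 TPM across the Usp22-KOB samples. The groups were apart, the means were 17.1% and 24.5% of WT, and an exact two-sided permutation test of the knockouts against WT gave p = 0.0119, the smallest that 84 splits of 9 samples allow. Libraries held between 13037 and 13940 genes at 1 TPM or more, and TPM keeps no read depth, so precision rests on the spread between samples. Markers of other cell types also moved with the groups. Summed over the 7 mast cell markers, levels ran from 149 to 182 TPM for WT, from 1190 to 2467 for Usp22-KOA and from 93.5 to 123 for Usp22-KOB. Mcpt4 carried the lower sum in Usp22-KOB (160 TPM in WT and 55.9 TPM there), where 4 of the 7 markers rose and 1 fell. Tpsb2 went from 1.72 to 26.6 TPM and Cma1 from 1.53 to 13.2 TPM. The 10 macrophage and monocyte markers summed to 2126 to 3228, 1583 to 3431 and 5573 to 9708 TPM. The 9 fibroblast markers summed to 506 to 926, 189 to 222 and 800 to 1231 TPM, and the 10 endothelial markers to 48.9 to 65.2, 11.2 to 17.4 and 37.9 to 56.7 TPM. The 10 epithelial and ductal markers, which fit the labelled cell type, summed to 8508 to 9043, 6331 to 7113 and 6976 to 8546 TPM. Keratins made up most of that sum. Of the 10 markers, 8 fell in Usp22-KOA (26.9% of all genes were lower there) and 6 in Usp22-KOB (18.4%). Krt19 rose in Usp22-KOA (limma adjusted p = 0.00247), at a mean of 2814 TPM beside 2065 TPM for WT. Krt8 did not pass a limma adjusted p of 0.05 in either knockout, and Cdh1, Krt18 and Krt19 did not in Usp22-KOB. Among those that fell in both knockouts, Epcam averaged 379, 37.7 and 31.3 TPM over WT, Usp22-KOA and Usp22-KOB. Muc1 averaged 603, 49.5 and 139 TPM and Cldn4 42.8, 1.09 and 7.79 TPM. The other lists were 8 pan-leukocyte markers (308 to 538, 397 to 839 and 754 to 1543 TPM), 9 T and NK cell markers (8.12 to 15.2, 40.8 to 97.0 and 22.2 to 58.2 TPM) and 6 neutrophil markers (637 to 685, 589 to 1477 and 106 to 372 TPM). Of the markers listed, Ncr1 and Ly6g were at 0 in some samples and 0 of any list were at 0 in all 9. In such bulk RNA, fewer cells of a type and less RNA per cell cannot be told apart, and the part of these cells in the differences below was not tested.

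All 3 complexes were represented at moderate levels. The median of the 33 gene means was 20.9 TPM for WT samples, 22.8 TPM for Usp22-KOA and 21.4 TPM for Usp22-KOB, beside a WT median of 16.5 TPM over all tested genes. Taf10 was the highest of the 33 in WT at a mean of 192 TPM, followed by Sf3b5 at 133, Sf3b3 at 89.4 and Taf9 at 63.9 TPM. Taf7 was the lowest at 3.69 TPM, with Taf5 at 5.14 and Taf3 at 6.72 TPM next to it. Where 3 group means of a gene stand in a row below, their order is WT, Usp22-KOA and Usp22-KOB. Within a group the samples of a gene had a median coefficient of variation of 6.77%, and the highest was 19.9%, for Taf7.

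A minority of the 33 genes was called in each comparison. Against WT, the mean of both knockouts was called (limma, adjusted p under 0.05) for 10 of the 33 genes, where 50.0% of all tested genes were called. Kat2b, Tada3, Taf12, Wdr5, Taf1 and Taf6 rose (6 of 33 against 25.9% of all genes), and Supt20, Taf10, Zzz3 and Taf5 fell (4 of 33 against 24.1%). This test measures the spread within groups, not that between the knockouts, so a call of the mean can lie in 1 knockout. Of these 10, Taf10 and Zzz3 alone were called in Usp22-KOB, where Taf1, Taf6 and Wdr5 differed from WT by -0.10, -0.03 and 0.03. The values of the 6 knockout samples and the 3 WT samples did not overlap for 4 of the 33, beside 29.7% of all genes. In Usp22-KOA, 13 were called against a background of 56.3%, 9 of them higher (29.4% of all genes) and 4 lower (26.9%), and 17 had no overlap with WT (65.3%). In Usp22-KOB, 4 were called against a background of 37.1%, 1 higher (18.7%) and 3 lower (18.4%), and 9 had no overlap with WT (49.1%). Both comparisons share the 3 WT samples. The median size of the difference was also lower than over all genes: 0.15 against 0.27 on the log2 scale for both knockouts, 0.19 against 0.37 for Usp22-KOA and 0.12 against 0.23 for Usp22-KOB. A difference of more than 1 on the log2 scale was found in 0 of the 33 genes in any comparison. The share of higher among called genes moved with the scaling. For both knockouts it was 6 higher and 4 lower as deposited, 4 and 8 after quantile normalization and 9 and 6 after median-of-ratios scaling, and for Usp22-KOA it was 9 and 4, 8 and 8, and 9 and 7. Counts of all genes called stayed within 1.5 times the main count under both scalings. Their split into higher and lower is not given here, so these counts do not tell a move of the subunit genes from one of the whole table.

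**Figure D1:**
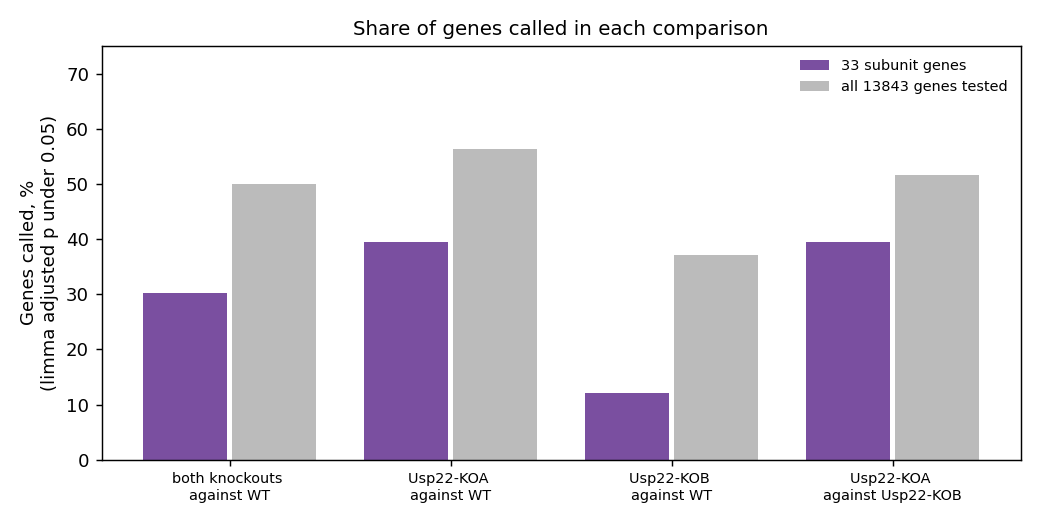
Bars give the percentage of genes called at a limma adjusted p under 0.05 in each of 4 comparisons, for the 33 subunit genes and for all 13843 genes tested. The share of the 33 genes is below that of all genes in each of the 4 (30.3% against 50.0%, 39.4% against 56.3%, 12.1% against 37.1% and 39.4% against 51.7%).

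In the SAGA acetyltransferase module, Kat2b, the paralog of Kat2a, had the largest difference from WT among the 33 genes in Usp22-KOA. Kat2b stood at 20.1, 19.3 and 17.0 TPM in WT, 35.8, 36.2 and 43.5 TPM across the Usp22-KOA samples and 21.1, 22.8 and 24.2 TPM across the Usp22-KOB samples. Every knockout sample was above every WT sample, and every Usp22-KOA sample was above every Usp22-KOB sample. The Usp22-KOA mean was 205% of WT (log2 difference 0.995 ± 0.0973 SE, limma adjusted p = 2.97e-05), while the Usp22-KOB mean was 121% of WT (0.26 ± 0.10, limma adjusted p = 0.0625). Kat2a, which encodes the other enzyme of this pair, stood at 27.4, 28.1 and 25.6 TPM in WT, 31.7, 27.7 and 28.5 TPM across the Usp22-KOA samples and 28.9, 27.8 and 30.4 TPM across the Usp22-KOB samples, and the groups overlapped. Tada3, an adaptor shared by SAGA and ATAC, rose from a mean of 33.2 to 38.7 TPM in Usp22-KOA (log2 difference 0.22 ± 0.06 SE, limma adjusted p = 0.0147) and was at 36.4 TPM in Usp22-KOB. Tada2b and Sgf29, the SAGA adaptor and a reader of methylated histone H3, had means of 9.33, 10.1 and 9.73 TPM and of 20.6, 22.8 and 22.7 TPM and were called in 0 of the 4 comparisons.

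In the SAGA core, 1 of 6 genes was called in Usp22-KOA, 0 in Usp22-KOB and 1 for the mean of both, beside 56.3%, 37.1% and 50.0% of all genes. Supt3, a histone-fold subunit, rose from a mean of 13.4 to 15.9 TPM in Usp22-KOA (log2 difference 0.24 ± 0.07 SE, limma adjusted p = 0.0154) and was at 13.8 TPM in Usp22-KOB. Supt20, a scaffold subunit, went from 36.2 TPM in WT to 31.1 and 29.8 TPM in the knockouts and fell as the mean of both (log2 difference -0.24 ± 0.09 SE, limma adjusted p = 0.0468). Taf6l stood at 9.25, 10.4 and 8.98 TPM in WT, 8.37, 8.87 and 6.95 TPM across the Usp22-KOA samples and 11.4, 13.9 and 10.8 TPM across the Usp22-KOB samples. Every Usp22-KOA sample was below and every Usp22-KOB sample above every WT sample, but neither difference from WT passed (limma adjusted p = 0.145 and 0.0807). Taf5l, in WT at 36.9, 38.5 and 36.6 TPM, was 40.3, 41.3 and 38.8 TPM across the Usp22-KOA samples and 35.3, 38.2 and 42.5 TPM across the Usp22-KOB samples and was not called. Tada1 (17.1, 17.2 and 18.1 TPM) and Supt7l (10.4, 8.97 and 8.83 TPM), which encode histone-fold subunits of this core, were not called either, and the large subunit Trrap, at 24.6, 21.1 and 23.1 TPM, was not called (limma adjusted p = 0.0669 in Usp22-KOA).

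The splicing factor subunits moved in opposite directions in Usp22-KOB. Sf3b3 fell from a mean of 89.4 to 74.6 TPM there (log2 difference -0.26 ± 0.08 SE, limma adjusted p = 0.0333), and Sf3b5 rose from 133 to 151 TPM (0.19 ± 0.07, limma adjusted p = 0.0492). Neither was called in Usp22-KOA, at 84.4 and 143 TPM. Of the 6 partners of SF3B3 and SF3B5 in SF3b, the branch site recognition part of the U2 particle, 1 fell in Usp22-KOB (18.4% of all genes were lower there) and 4 in Usp22-KOA (26.9%). As the mean of both knockouts 4 fell and 0 rose (24.1% lower and 25.9% higher over all genes), among them Sf3b4 (94.0 TPM in WT, 73.1 and 72.1 in the knockouts), Sf3b1 (76.7, 52.2 and 69.0 TPM) and Phf5a (37.0, 26.0 and 31.6 TPM).

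Of the TAFs shared by SAGA and TFIID, Taf10 fell in both knockouts. Taf10 encodes a histone-fold protein present in both complexes. It stood at 195, 190 and 190 TPM in WT, 152, 157 and 146 TPM across the Usp22-KOA samples and 154, 158 and 132 TPM across the Usp22-KOB samples, and every knockout sample was below every WT sample. The means were 79.2% and 77.3% of WT (log2 difference -0.34 ± 0.07 SE and -0.37 ± 0.07, limma adjusted p = 0.00246 and 0.0029). Taf12 stood at 27.5, 28.8 and 26.2 TPM in WT, 40.6, 43.4 and 37.7 TPM across the Usp22-KOA samples and 30.7, 33.3 and 28.2 TPM across the Usp22-KOB samples. The Usp22-KOA samples were above all others and the mean rose to 147% of WT (log2 difference 0.54 ± 0.08 SE, limma adjusted p = 0.000357), while Usp22-KOB overlapped WT. Taf9 stood at 63.8, 67.4 and 60.5 TPM in WT, 59.4, 56.2 and 54.5 TPM across the Usp22-KOA samples and 54.1, 61.7 and 60.0 TPM across the Usp22-KOB samples, and was not called. Of these 3 TAFs, 1 rose and 1 fell in Usp22-KOA, where 29.4% of all genes were higher and 26.9% lower.

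Among the ATAC subunits, Zzz3 fell in both knockouts and Mbip rose in Usp22-KOA. Zzz3, which encodes a histone-binding subunit of ATAC, stood at 22.8, 20.6 and 19.6 TPM in WT, 15.3, 15.5 and 16.2 TPM across the Usp22-KOA samples and 13.5, 14.8 and 16.3 TPM across the Usp22-KOB samples. Every knockout sample was below every WT sample. The means were 74.6% and 70.7% of WT (log2 difference -0.40 ± 0.09 SE and -0.47 ± 0.09, limma adjusted p = 0.00352 and 0.00289). Mbip, in WT at 20.3, 19.3 and 18.7 TPM, was 27.3, 29.5 and 34.4 TPM across the Usp22-KOA samples and 15.7, 16.7 and 18.2 TPM across the Usp22-KOB samples. Its Usp22-KOA samples were above and its Usp22-KOB samples below every WT sample, and the rise to 156% of WT passed (log2 difference 0.61 ± 0.09 SE, limma adjusted p = 0.000468), while the Usp22-KOB difference did not (-0.20 ± 0.09, limma adjusted p = 0.127). Wdr5, a WD-repeat subunit that ATAC shares with the KMT2 methyltransferase complexes, rose from a mean of 30.2 to 38.2 TPM in Usp22-KOA (log2 difference 0.33 ± 0.07 SE, limma adjusted p = 0.00268) and was at 30.9 TPM in Usp22-KOB. Dr1, the NC2 beta subunit, had means of 29.3, 32.6 and 27.3 TPM and Yeats2, which encodes a reader of acylated histones, 22.0, 23.4 and 21.4 TPM, and neither was called against WT. Tada2a stood at 9.73, 10.1 and 9.16 TPM in WT, 9.21, 9.71 and 9.86 TPM across the Usp22-KOA samples and 9.54, 9.47 and 12.1 TPM across the Usp22-KOB samples, with overlapping groups, and Tada2b at 10.2, 9.47 and 8.34 TPM, at 9.31, 9.94 and 11.1 TPM and at 9.26, 9.50 and 10.4 TPM in the same order.

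In TFIID, 3 of 10 genes rose and 2 fell in Usp22-KOA, a share near the 56.3% called over all genes, and 0 of 10 were called in Usp22-KOB (37.1%). Taf1, the scaffold subunit with bromodomains, stood at 10.8, 10.6 and 10.3 TPM in WT, 16.7, 18.2 and 19.4 TPM across the Usp22-KOA samples and 9.32, 9.37 and 10.6 TPM across the Usp22-KOB samples. The Usp22-KOA mean was 172% of WT (log2 difference 0.73 ± 0.08 SE, limma adjusted p = 7.11e-05) and no Usp22-KOA sample overlapped another group. Taf6 stood at 44.6, 45.6 and 41.2 TPM in WT, 72.9, 76.4 and 76.3 TPM across the Usp22-KOA samples and 39.2, 42.6 and 46.9 TPM across the Usp22-KOB samples, with the same separation and a rise to 172% of WT (log2 difference 0.77 ± 0.07 SE, limma adjusted p = 2.49e-05). Taf13, a partner of TAF11, rose from 38.6 to 46.8 TPM in Usp22-KOA (log2 difference 0.27 ± 0.07 SE, limma adjusted p = 0.0124). Taf5, the WD-repeat scaffold of TFIID, stood at 5.67, 4.74 and 5.02 TPM in WT, 3.34, 2.85 and 2.62 TPM across the Usp22-KOA samples and 3.68, 4.20 and 4.14 TPM across the Usp22-KOB samples. Every knockout sample was below every WT sample, and Taf5 fell to 57.1% of WT in Usp22-KOA (log2 difference -0.64 ± 0.12 SE, limma adjusted p = 0.00122) but did not pass in Usp22-KOB at 77.9% (limma adjusted p = 0.075). Taf2, which encodes a promoter-binding subunit, fell from 16.3 to 12.0 TPM in Usp22-KOA (log2 difference -0.42 ± 0.14 SE, limma adjusted p = 0.0277). Tbp, with means of 19.3, 20.5 and 20.2 TPM, was not called against WT. Neither were Taf3, whose product reads methylated histone H3 (6.72, 7.49 and 5.87 TPM), Taf7, a regulator of TAF1 (3.69, 4.32 and 3.88 TPM), Taf8, the histone-fold partner of TAF10 (13.4, 13.7 and 13.7 TPM), or Taf11 (20.9, 19.2 and 19.0 TPM).

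**Figure D2:**
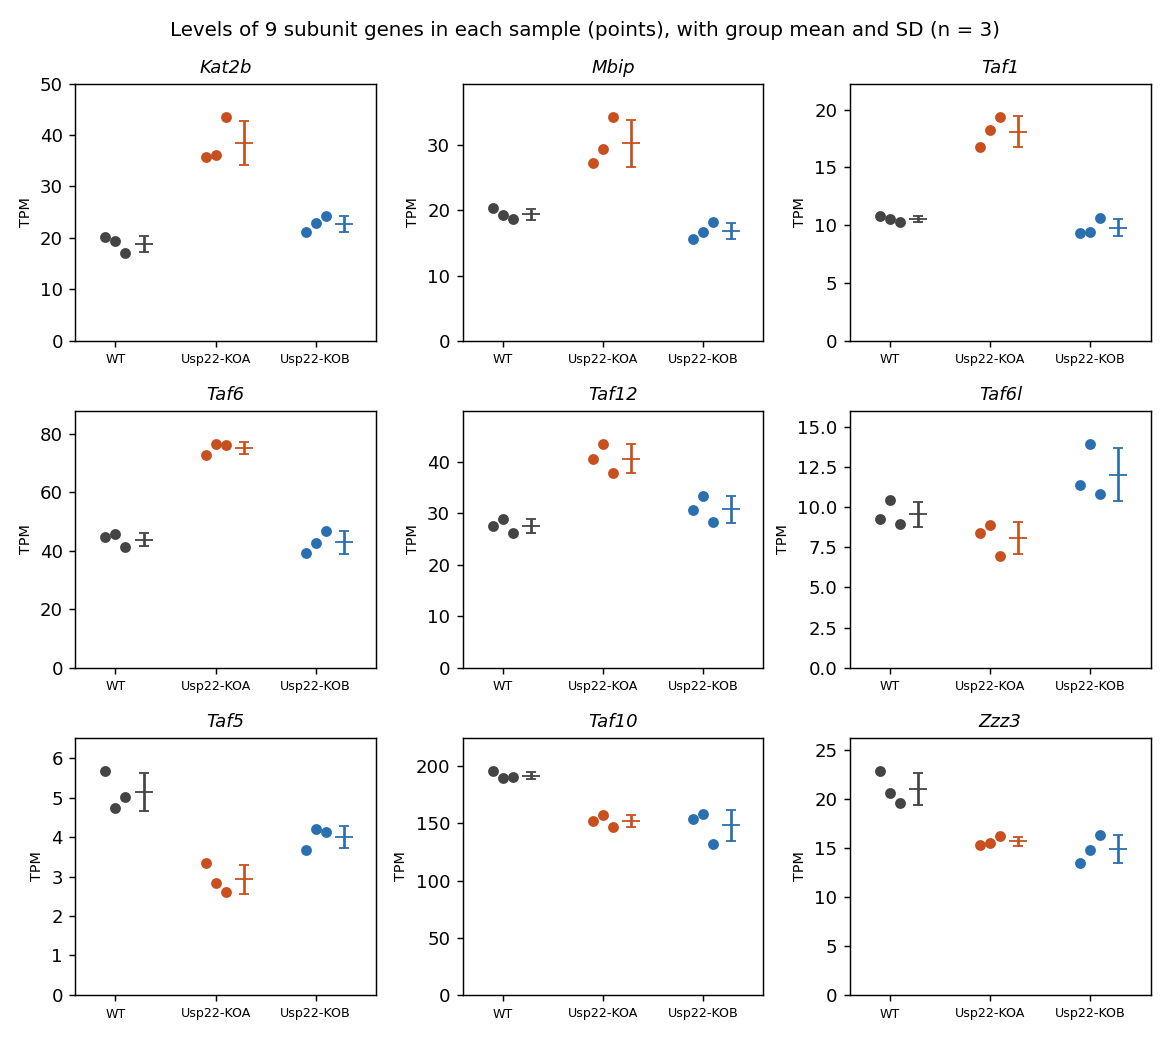
Each panel shows 1 gene with its level in TPM on an axis from 0, points for the 3 samples of each group, and the group mean with its SD beside them. Kat2b, Mbip, Taf1, Taf6 and Taf12 are higher in all 3 Usp22-KOA samples than in any other sample, and Taf10 and Zzz3 are below WT in all 6 knockout samples.

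**Figure D3:**
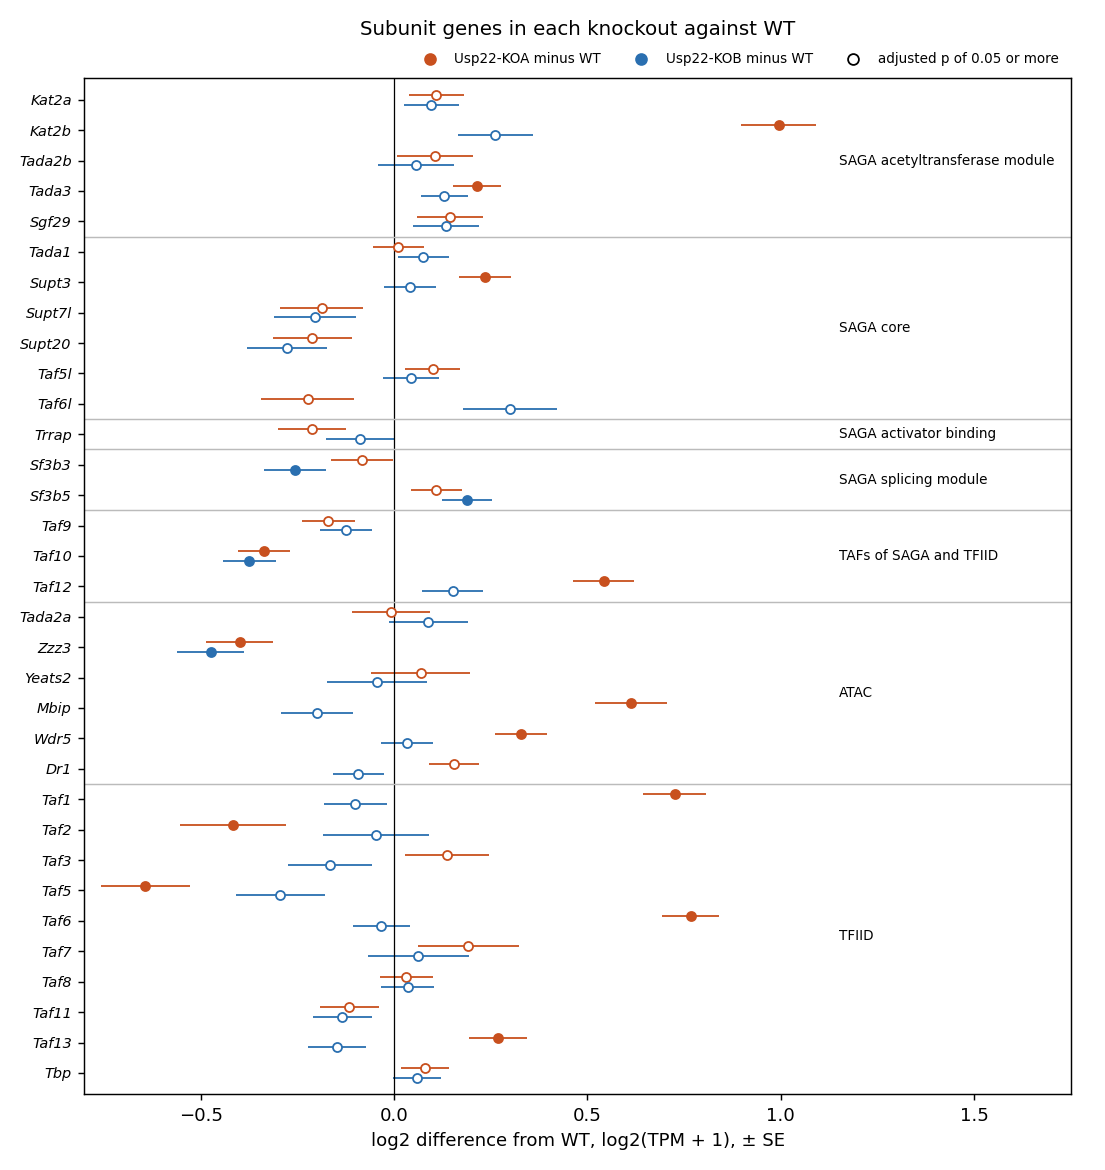
Points give the log2 difference from WT with its SE for the 33 genes, grouped by module, in Usp22-KOA and Usp22-KOB; filled points passed a limma adjusted p of 0.05. Of the filled points, 13 belong to Usp22-KOA and 4 to Usp22-KOB, and Taf10 and Zzz3 are filled on the same side in both.

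Several of these calls ended when any 1 of several samples was left out, or with another processing or grouping of the samples. In Usp22-KOA, the call of Taf2 ended without WT sample 1 or 2 or Usp22-KOA sample 1 or 2, that of Tada3 without WT sample 2 or Usp22-KOA sample 2, and that of Supt3 without WT sample 3 or Usp22-KOA sample 1. In Usp22-KOB, the calls of Sf3b3 and Sf3b5 both ended without WT sample 1 or Usp22-KOB sample 1 or 2, which left 2 genes called, and those of Taf10 and Zzz3 held whichever of the 6 samples was left out. Sf3b3 also lost its call without WT sample 2, and Sf3b5 without WT sample 3 or Usp22-KOB sample 3. For the mean of both knockouts, Supt20 lost its call without WT sample 1 or 2, Usp22-KOA sample 1 or 2 or Usp22-KOB sample 1 or 2, and Tada3 and Wdr5 without WT sample 2 or 3, Usp22-KOA sample 2 or Usp22-KOB sample 2. Quantile normalization ended the calls of Tada3 and Wdr5 for the mean of both knockouts and of Tada3 and Taf13 in Usp22-KOA. Without an intensity trend Supt20 was not called for both knockouts, nor Sf3b3 and Sf3b5 in Usp22-KOB, and without a filter on low values neither Supt20 nor Sf3b5 was. With the 6 knockout samples as 1 group, Taf10 and Zzz3 alone were called, where 21.3% of all tested genes were.

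The knockouts differed from each other at 13 of the 33 genes, against a background of 51.7%, and 13 had no overlap between the knockouts (58.3%). Higher in Usp22-KOA were 10 genes (27.5% of all): Kat2b, Supt3, Taf12, Mbip, Wdr5, Dr1, Taf1, Taf3, Taf6 and Taf13. Lower were 3 (24.2%): Taf6l, Taf2 and Taf5. Taf1 differed by 0.83 ± 0.08 SE on the log2 scale (limma adjusted p = 5.26e-05), Mbip by 0.81 ± 0.09 (limma adjusted p = 0.000128), Taf6 by 0.80 ± 0.07 (limma adjusted p = 3.16e-05) and Kat2b by 0.73 ± 0.10 (limma adjusted p = 0.000292). Taf6l differed by -0.52 ± 0.12 (limma adjusted p = 0.00602). Dr1, at 32.6 against 27.3 TPM, and Taf3, at 7.49 against 5.87 TPM, were called here and not against WT. By these tests 8 genes were higher in Usp22-KOA than in both other groups, and Taf2 and Taf5 were lower. The share of all genes that met both tests was not computed, so these counts are not read as particular to the subunit genes. The calls of Supt3, Taf2, Taf3 and Taf5 each ended without at least 1 sample: all 4 without Usp22-KOA sample 3 or Usp22-KOB sample 2, Supt3 and Taf2 without Usp22-KOA sample 1, Taf2, Taf3 and Taf5 without Usp22-KOA sample 2, Supt3 and Taf3 without Usp22-KOB sample 1, and Taf2 and Taf5 without Usp22-KOB sample 3.

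Where SAGA, ATAC and TFIID use paralogs, the log2 ratio of their levels (TPM + 1) was followed in each sample. Kat2b over Kat2a was -0.43, -0.52 and -0.57 across the WT samples, 0.17, 0.37 and 0.59 across the Usp22-KOA samples and -0.43, -0.27 and -0.32 across the Usp22-KOB samples, so Kat2b RNA was the lower of the pair in WT and Usp22-KOB and the higher in Usp22-KOA. Taf5l over Taf5 was 2.51, 2.78 and 2.64 in WT, 3.25, 3.46 and 3.46 across the Usp22-KOA samples and 2.96, 2.91 and 3.08 across the Usp22-KOB samples, above WT in 6 of 6 knockout samples. Taf6l over Taf6 was -2.15, -2.03 and -2.08 across the WT samples, -2.98, -2.97 and -3.28 across the Usp22-KOA samples and -1.70, -1.55 and -2.02 across the Usp22-KOB samples, below WT in 3 samples and above it in the other 3. Tada2b over Tada2a overlapped between each knockout and WT, and its difference for both knockouts was 0.04. Taf9b, at 1.07, 0.671 and 0.514 TPM in WT, 0.561, 0.578 and 0.706 TPM across the Usp22-KOA samples and 0.951, 1.41 and 0.674 TPM across the Usp22-KOB samples, was too low to be tested alone. Exact two-sided permutation tests of both knockouts against WT gave 0.0595 for Kat2b over Kat2a (difference 0.53), 0.0238 for Taf5l over Taf5 (0.54) and 0.476 for Taf6l over Taf6 (-0.33). After Benjamini-Hochberg adjustment over the 5 pairs the lowest exact permutation p was 0.119, so 0 of 5 passed. The smallest exact permutation p that 84 splits allow is 0.0119, so 1 pair shifted alone could not pass this adjustment. The test also pools the knockouts, which lay on opposite sides of WT for Taf6l over Taf6. No conclusion about the ratios is drawn from it.

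**Figure D4:**
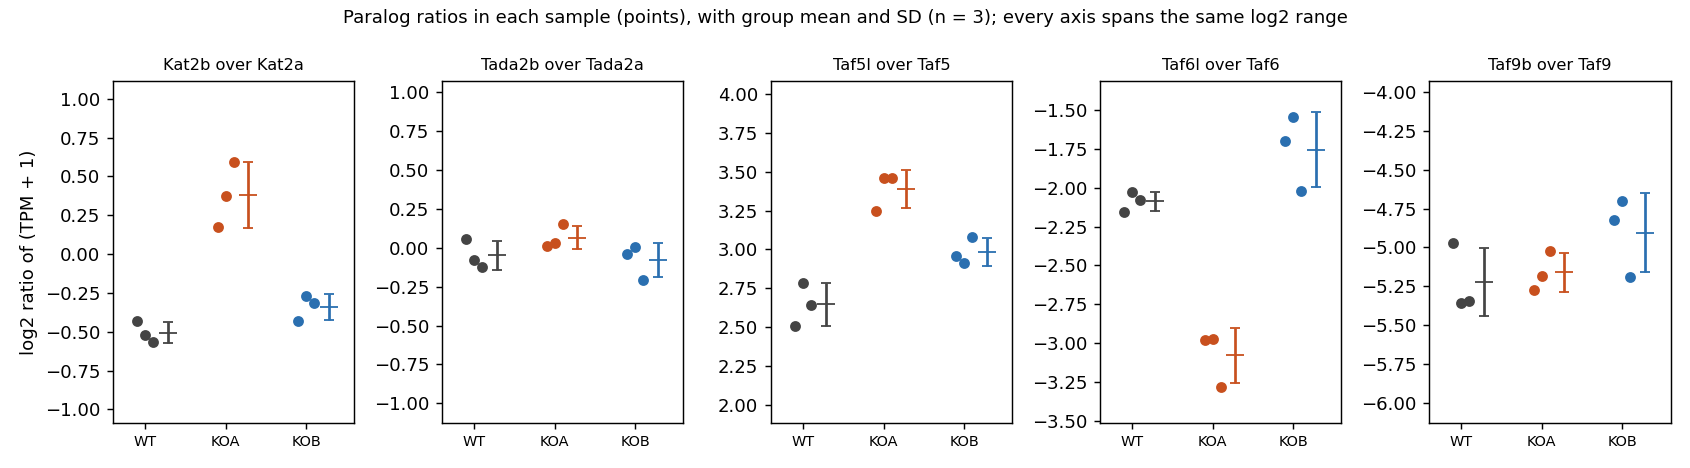
Each panel shows the log2 ratio of (TPM + 1) for 1 pair of paralogs in the 9 samples, with the group mean and SD beside the points. Usp22-KOA stands above WT for Kat2b over Kat2a and below it for Taf6l over Taf6, and all 6 knockout samples are above WT for Taf5l over Taf5.

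Several of the called genes had differences close to those of the genes around them on the chromosome. For each gene, the median difference of the other tested genes within 5 Mb was taken as the value of its surroundings, an alternative added after the data were seen. Taf1, on chromosome X from 101532734 to 101601789 of GRCm38, differed by 0.73 in Usp22-KOA, and the 47 genes around it by a median of 0.66. Wdr5, on chromosome 2, differed by 0.33 and its 161 neighbours by 0.36, and Taf2, on chromosome 15, by -0.42 and its 35 neighbours by -0.29. In Usp22-KOB, Zzz3 on chromosome 3 differed by -0.47 and its 16 neighbours by -0.34, and the median over chromosome 3, which also holds Supt20 and Taf13, was -0.33. Taf10, on chromosome 7, differed by -0.34 and -0.37 and its 74 neighbours by -0.22 and -0.25. By contrast, the surroundings of Kat2b (chromosome 17), Mbip (chromosome 12) and Taf12 (chromosome 4) had medians of 0.11, 0.03 and 0.14 in Usp22-KOA, and those of Taf6 (chromosome 5) 0.27. The sign matched that of the surroundings for 10 of the 13 genes called in Usp22-KOA and 4 of 4 in Usp22-KOB, where 70.3% and 64.6% of all called genes matched. It matched for 9 of 10 in the mean of both knockouts (68.4% of all called genes) and for 13 of 13 between the knockouts (70.3%).

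With the sample's neighbourhood median taken off, Kat2b, Taf6, Mbip and Taf12 were still called in Usp22-KOA. Their differences were then 0.86 ± 0.08 SE, 0.45 ± 0.05, 0.55 ± 0.08 and 0.43 ± 0.09 (limma adjusted p = 3.25e-05, 6.68e-05, 0.00032 and 0.00287). Tada3, Supt3 and Taf13 were also still called there, which made 9 of the 13 with Taf5 and Zzz3, at -0.39 ± 0.11 and -0.25 ± 0.05 (limma adjusted p = 0.0147 and 0.00385). The Usp22-KOA calls of Taf1, Wdr5, Taf2 and Taf10 ended, with differences of 0.05, -0.04, -0.01 and -0.16. In Usp22-KOB the 4 calls ended, and 7 other genes were called: Kat2b, Tada2b, Sgf29, Trrap, Taf9, Taf6 and Taf13. For the knockout means together, 17 genes were called, 7 of the 10 genes called before among them, beside a background of 48.8%. In Usp22-KOA it was 15 genes (53.6%), in Usp22-KOB 7 (37.1%) and between the knockouts 7 (45.5%). Between the knockouts, Kat2b, Taf12, Mbip, Taf1 and Taf6 were still called (5 of 13), the calls of Supt3, Taf6l, Wdr5, Dr1, Taf2, Taf3, Taf5 and Taf13 ended, and Tada1 and Trrap were newly called. DNA copy number was not analysed here, and its part in these differences was not tested.

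**Figure D5:**
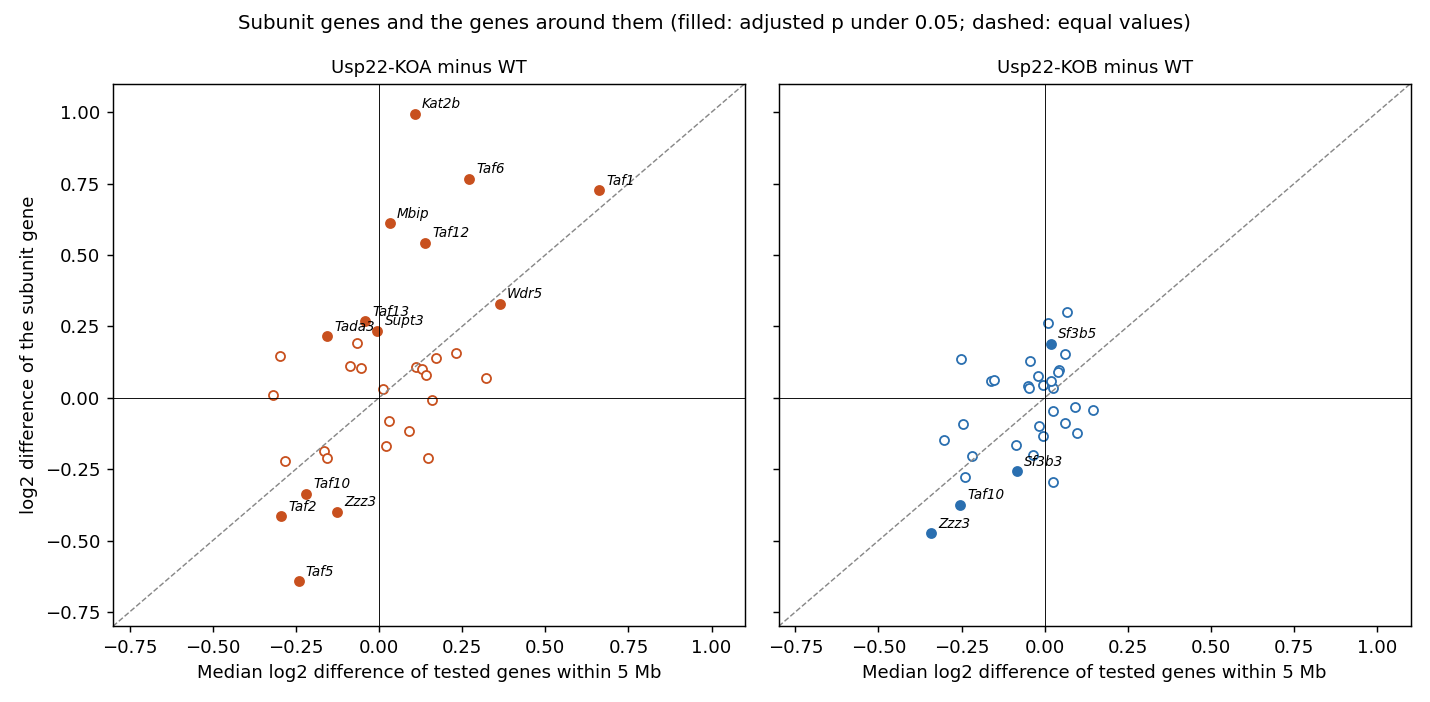
Each point is 1 of the 33 genes, with the median log2 difference from WT of the tested genes within 5 Mb on the x axis and its own difference on the y axis, for Usp22-KOA and Usp22-KOB; filled points passed a limma adjusted p of 0.05. Taf1 and Wdr5 lie near the dashed line of equal values in Usp22-KOA, and Kat2b, Taf6, Mbip and Taf12 lie above it.

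Reads of some members may be shared with overlapping genes, and the sources used here do not state the strand of the libraries. Exons of Taf10 overlap 2106 bases of Ilk on the other strand, and Ilk had means of 113, 97.8 and 108 TPM. Exons of Taf6 overlap 1185 bases of Ap4m1, whose means of 25.9, 45.7 and 23.7 TPM followed the order of Taf6, and Cnpy4, read divergently from Taf6, had 39.2, 65.4 and 47.4 TPM. Taf5 shares 16 exonic bases with Usmg5, a far more abundant gene at 1869, 1301 and 1504 TPM. Supt20 shares 89 with Exosc8 (36.5, 26.5 and 32.4 TPM), Sf3b3 188 with Cog4 (48.2, 53.3 and 42.4 TPM) and Zzz3 12 with Ak5 (3.70, 0.121 and 0.659 TPM), all on the other strand. Values of these subunit genes are uncertain to that extent, and the part of the overlapping genes in the differences was not tested. Tbp overlaps 2582 bases of Pdcd2, Tada1 1054 bases of Pogk and Taf9 1564 bases of Ak6, the last on the same strand. None of these 3 subunit genes was called in the main fit. With the neighbours within 5 Mb taken off, Tada1 and Taf9 were called for both knockouts.

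Partners of the 33 genes in other complexes were followed from lists of the same kind, in the comparison of both knockouts with WT (background 50.0%, with 25.9% higher and 24.1% lower). All 6 genes of the SAGA deubiquitinase module were called, 3 higher and 3 lower, with the targeted gene Usp22 among the lower ones. Atxn7l3 (34.8, 45.7 and 41.3 TPM), Atxn7 (5.26, 7.78 and 6.54 TPM) and Atxn7l1 (11.3, 15.2 and 13.8 TPM) rose. Taken by knockout, Atxn7l3 was called in each, and Atxn7 and Atxn7l1 in Usp22-KOA and not in Usp22-KOB. Besides Usp22, Atxn7l2, a paralog of the module's anchor Atxn7, fell from a mean of 14.4 TPM to 7.29 and 8.70 TPM, and Eny2, which SAGA shares with the TREX-2 mRNA export complex, from 37.9 to 23.8 and 29.9 TPM. Among 6 tested genes of other ATAC and TFIID subunits and paralogs, Tbpl1, a TBP-like factor, rose (12.5, 17.5 and 15.8 TPM). Pole3, a histone-fold subunit of ATAC, fell (93.1, 76.6 and 79.8 TPM). Tbpl1 and Pole3 were called in Usp22-KOA and not in Usp22-KOB. Of 19 general transcription factors and TBP regulators, 4 rose and 5 fell. They included Gtf2e1 of TFIIE (12.7, 18.5 and 17.0 TPM) and, of TFIIH, Ccnh (14.2, 19.5 and 17.6 TPM) and Ercc2 (18.7, 11.9 and 16.9 TPM). Ercc2 was called in Usp22-KOA and not in Usp22-KOB.

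Of 16 partners of Trrap in the TIP60 complex, 4 rose and 7 fell. The ATPase gene Ruvbl2 fell from 69.6 to 40.8 and 53.0 TPM, and Vps72, a histone H2A.Z chaperone gene, from 90.9 to 62.9 and 67.5 TPM. Mrgbp rose, with means of 22.2, 48.5 and 21.5 TPM, so its difference lay in Usp22-KOA. Of 12 partners of Wdr5 in the KMT2 complexes, 7 fell and 0 rose, where Wdr5 itself rose in Usp22-KOA. By knockout, 8 fell in Usp22-KOA (26.9% of all genes) and 3 in Usp22-KOB (18.4%). The methyltransferase gene Kmt2b fell from 25.0 to 15.9 and 17.3 TPM, and Ash2l had 57.0, 49.8 and 48.8 TPM. Rbbp5, at 16.2, 10.5 and 16.3 TPM, was called against WT in Usp22-KOA and not in Usp22-KOB. Of 6 other nuclear acetyltransferases, 2 fell, Kat6b (7.51, 6.28 and 5.13 TPM) and Ep300 (23.9, 16.6 and 23.4 TPM). Taken by knockout, Kat6b was called in Usp22-KOB alone and Ep300 in Usp22-KOA alone.

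Of the 33 genes, 14 were called in none of the 4 comparisons: Kat2a, Tada1, Tada2b, Sgf29, Supt7l, Taf5l, Trrap, Taf9, Tada2a, Yeats2, Taf7, Taf8, Taf11 and Tbp. The 95% intervals of their differences between both knockouts and WT lay between -0.40 and 0.38 on the log2 scale. The share of all genes called in none of the 4 was not computed. With the neighbours within 5 Mb taken off, 7 of these 14 genes were called for both knockouts, where 48.8% of all genes were. Tada1, Tada2b and Sgf29 were higher and Trrap, Taf9, Yeats2 and Taf11 lower. Sgf29 was at 0.41 ± 0.06 SE and Trrap at -0.29 ± 0.05 (limma adjusted p = 0.000664 and 0.00123).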

How the data were processed

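Polyadenylated RNA of 9 samples was compared. The authors deposited 1 table in TPM. Per the submitters' processing notes, Salmon and the build mm10 were used; the sources used here do not state the transcript annotation or the strand. The table's 9 columns were matched to samples by name, and 0 columns were left over. Read depth is unknown, so no counting interval is given.

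Values were taken to log2(TPM + 1); a fold change of a low gene is thereby understated. Genes averaging 1 TPM or more were fitted together (limma 3.58.1 in R 4.3.3, a mean per group over all 9 samples, eBayes with an intensity trend), with calls at a Benjamini-Hochberg adjusted p below 0.05. The fit was tested on simulated data. Usp22 and 5 paralog ratios had exact permutation tests. The 33 genes and the other lists were chosen with earlier results of these data known. Each sample's value was given for genes called in at least 1 comparison with a difference of 0.5 or more and for paralog pairs. Taf10 and Zzz3, chosen after their values were seen, were shown in the same way. Up to 3 genes with the lowest adjusted p were named per partner list, and the deubiquitinase module genes that rose were added. Gene positions are from GENCODE M21 on GRCm38 (mm10). Also tried were a pseudocount of 0.1 or 5, no filter or a minimum mean of 5 TPM, quantile and median-of-ratios scaling, no trend, array weights, a replicate block, only the groups compared, the knockouts as 1 group, each sample left out, and, chosen after seeing the data, the median of genes within 5 Mb or of the chromosome taken off.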

Additional observations from a re-analysis of the deposited data

Results flagged for a closer look

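An effect that differed between the knockouts was found for 13 genes by the limma test of Usp22-KOA against Usp22-KOB. On the log2 scale, Usp22-KOA was higher for Taf1 by 0.83, Mbip by 0.81, Taf6 by 0.80, Kat2b by 0.73, Taf13 by 0.42, Taf12 by 0.39, Taf3 by 0.30, Wdr5 by 0.29, Dr1 by 0.25 and Supt3 by 0.19. The difference was negative for Taf6l at -0.52, Taf2 at -0.37 and Taf5 at -0.35. In this comparison 51.7% of all tested genes were called, against 39.4% of the subunit genes. With the neighbours within 5 Mb taken off, 8 of the 13 calls ended (Supt3, Taf6l, Wdr5, Dr1, Taf2, Taf3, Taf5 and Taf13).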

How the results depend on the processing

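Pseudocounts, filters, the trend and the choice of groups in the fit left every count of called subunit genes within 1.5 times the main count. Over all single genes and settings, 2264 values kept their side of the threshold, with the same direction where called. A further 109 passed it anew, 113 no longer passed, and 14 reversed while called in the main fit or the alternative. A change of sign was not counted where neither fit called the gene. Counts moved further as follows. With the 6 knockout samples as 1 group, 2 of the 33 and 2946 of all genes were called in place of 10 and 6920. For Usp22-KOB against WT, 4 became 8 after quantile normalization, 14 with array weights, and 7 with either the neighbours within 5 Mb or the chromosome median taken off. Counts of all genes called stayed within 1.5 times the main count under these settings and with the replicate block. With the neighbours taken off, 17 were called for both knockouts and 7 between the knockouts. Leaving out 1 sample gave 2 to 4 in Usp22-KOB. After quantile normalization, Taf5l over Taf5 (0.36) and Taf9b over Taf9 (0.43) passed the permutation test. With the neighbours taken off, values of genes called in either fit reversed as follows. For both knockouts they became -0.23 for Yeats2, -0.0050 for Wdr5 and -0.038 for Taf1. In Usp22-KOA they became -0.29 for Yeats2 and -0.035 for Wdr5, and in Usp22-KOB 0.18 for Taf13. Between the knockouts they became 0.26 for Tada1, -0.061 for Wdr5, -0.20 for Dr1 and 0.063 for Taf2. With the chromosome median taken off, they reversed to 0.0054 for Supt20 for both knockouts, -0.29 for Yeats2 in Usp22-KOA, 0.17 for Taf13 in Usp22-KOB and 0.30 for Tada1 between the knockouts. The cause was not tested. The replicate block gave 7, 13, 4 and 9 called subunit genes for both knockouts, Usp22-KOA, Usp22-KOB and the knockouts against each other; same-numbered samples correlated between -0.12 and 0.28, 2 of 9 over 0.1, and 4 of 9 samples correlated best with their own number, so the numbers were not taken as pairs. Without depth, low genes such as Taf5, Taf7 and Taf9b carry an unknown counting error.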
